A study of Mus musculus with 4 samples.

Results

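A set of 182 collagen-expressing barcodes with high Mmp13 or Ibsp was taken from the synovium of TNF+ mice, of 30943 barcodes in the whole series. TNF+ mice carry a human TNF transgene on a C57BL/6 background, TNF- mice are littermates without it, and all mice were female and 4 months old. Viable cells were sorted after a digest with type II collagenase, and tissue from 5 to 10 mice per genotype was pooled before droplet-based 3' RNA sequencing (10x Genomics). Each genotype is therefore 1 synovium library with no replicate, and no p-value is given. The intervals below are 95% intervals for counting error and hold no variation between mice or preparations. The human transgene is not in the mouse reference, so its transcript was not measured.

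A barcode is the tag of 1 droplet, and a UMI is a tag that marks 1 captured RNA molecule. Barcodes with at least 500 UMIs and at most 20% mitochondrial UMIs were gated on at least 20 raw UMIs over Col1a1, Col1a2, Col3a1 and Dcn, with Ptprc (the leukocyte surface protein CD45) and Cdh5 (VE-cadherin of endothelium) both at 0. This gate held 581 TNF+ and 3515 TNF- synovial barcodes. Those with at least 5 UMIs over Mmp13 and Ibsp together made the set, here called Mmp13/Ibsp fibroblasts. They were 31.3% of gated TNF+ barcodes (27.6 to 35.3%, exact binomial interval) and 5.20% of all 3498 TNF+ synovial barcodes that passed the first 2 filters. In TNF- synovium 0 of 3515 gated barcodes passed, which allows a share of up to 0.0853% by a floor of 3 barcodes (0.105% as the upper exact binomial limit). The set was thus chosen by measured Mmp13 and Ibsp UMIs, and the other markers were known from these data when it was proposed, so their levels are a description.

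Mmp13 is a collagenase that cleaves the fibrils of cartilage, and synovial fibroblasts of arthritic joints are a known source of it. Ibsp is bone sialoprotein, an acidic protein of mineralizing matrix that osteoblasts and hypertrophic chondrocytes make. The synovium normally holds a lubricating lining layer of fibroblasts that make lubricin (Prg4) and a looser sublining layer with Thy1 and Cd34. In inflammatory arthritis, fibroblasts at the eroding front also make stromelysin (Mmp3), chemokines and the osteoclast-inducing ligand RANKL (Tnfsf11).

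In the GRCm38 build, Mmp13 lies at chr9:7272514-7283331, Mmp3 at chr9:7445822-7455975, Ibsp at chr5:104299171-104311469 and Tnfsf11 at chr14:78277445-78308043. The promoter letters are shown for the genes that define the set and for Mmp3 and Tnfsf11, whose UMIs lay mostly in it. Each run gives the 250 bases before the RefSeq transcription start in GRCm38.p6, in the direction of transcription, with motif matches in capitals. Letters were searched on both strands. The AP-1 motif was written as TGANTCA. The RUNX motif was written as TGTGGT. The NF-kB motif was written as GGGANTTCC, the C/EBP motif as TTGCNNCAA and the TATA box as TATAAA. Mmp13 (chr9:7272264-7272513, plus strand) held an AP-1 match 35 bases before the start, a RUNX match on the reverse strand 118 bases before it and a TATA box 16 bases before it. Mmp3 (chr9:7445572-7445821, plus strand) held an AP-1 match 46 and a TATA box 7 bases before the start. Ibsp (chr5:104299037-104299286, plus strand) and Tnfsf11 (chr14:78308044-78308293, minus strand) each held a reverse TATA box, 28 and 32 bases before the start. The RefSeq start used for Ibsp lies inside the gene interval given above. Part of the Ibsp window, with its TATA match, therefore overlaps that interval.
Mmp13: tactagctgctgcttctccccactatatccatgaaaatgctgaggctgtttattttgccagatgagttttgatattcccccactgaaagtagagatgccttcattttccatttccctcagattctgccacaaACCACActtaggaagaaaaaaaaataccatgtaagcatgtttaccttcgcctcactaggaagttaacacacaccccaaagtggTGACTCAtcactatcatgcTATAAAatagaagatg
Mmp3: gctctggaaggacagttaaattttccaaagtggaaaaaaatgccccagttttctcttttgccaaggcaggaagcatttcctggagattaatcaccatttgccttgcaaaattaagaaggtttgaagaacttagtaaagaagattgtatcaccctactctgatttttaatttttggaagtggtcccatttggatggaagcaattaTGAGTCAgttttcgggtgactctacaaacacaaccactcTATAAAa
Ibsp: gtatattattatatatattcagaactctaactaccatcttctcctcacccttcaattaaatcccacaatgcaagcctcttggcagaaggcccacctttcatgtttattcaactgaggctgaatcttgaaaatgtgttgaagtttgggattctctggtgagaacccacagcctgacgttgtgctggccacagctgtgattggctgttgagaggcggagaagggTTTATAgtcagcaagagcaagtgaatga
Tnfsf11: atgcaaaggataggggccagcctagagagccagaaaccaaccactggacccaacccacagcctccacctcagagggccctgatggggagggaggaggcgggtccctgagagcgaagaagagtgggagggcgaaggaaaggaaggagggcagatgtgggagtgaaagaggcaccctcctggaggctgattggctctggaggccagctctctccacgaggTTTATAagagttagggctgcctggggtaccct
Of 32851 such windows over 27025 gene symbols, 6.75% held the AP-1 letters, 14.05% the RUNX letters, 12.4% the TATA letters, 1.43% the NF-kB letters and 1.74% the C/EBP letters. Neither the NF-kB nor the C/EBP letters stood in these 4 windows, nor in those of Saa3, Timp1, Postn and Spp1. Cxcl5 and Hp had no window in the table. A match is a description of letters and not a binding site.

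The libraries differed in depth and quality. The TNF- synovium held 6899 barcodes and 90427403 UMIs, and the TNF+ synovium 4246 barcodes and 48454234 UMIs. The mitochondrial limit was exceeded by 3.78% of TNF- and 17.6% of TNF+ barcodes, and the 2 libraries shared 5 barcode sequences. Mmp13/Ibsp fibroblasts were deep, with a median of 29945.5 UMIs (878 to 82091) against 11194 in the other 399 gated TNF+ barcodes and 15661 in gated TNF- barcodes. More than 5000 genes were detected in 53.8% of them, against 11.3% and 6.86%. The rule counts raw UMIs, so a deeper barcode reaches its threshold more easily. How much of the depth of the set comes from this was not tested. When every barcode was thinned to 2000 UMIs first and the thresholds were lowered to 2 and 5 UMIs, 138 of 633 gated barcodes (21.8%) were chosen. Doublets were not called, and their part in the set was not tested.

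The label was checked against defining markers. Pdgfra, a growth factor receptor, and Pdpn, the membrane glycoprotein podoplanin, both carried by fibroblasts, were each detected in 90.7% of the barcodes. These are raw shares over the whole set, which was deeper than the other gated barcodes. Col1a1 had 15711 CPM (UMIs of a gene per 1000000 UMIs summed over the barcodes of a group), against 7310 in the other gated TNF+ barcodes and 1450 in gated TNF- barcodes. Because Col1a1 is a gene of the collagen gate, its level is a description and no check of the label. Leukocyte genes other than Ptprc stayed low: the list of 15 summed to 54.4 CPM in the set, 71.5 in the other gated TNF+ and 25.8 in the gated TNF- barcodes, and 2 of its genes were at 0 in the set. At least 3 leukocyte UMIs were found in 21.98% of the set, 13.8% of the other gated TNF+ and 0.939% of the gated TNF- barcodes. The 10 endothelial genes summed to 62.2 CPM against 99.8, with Pecam1 at 2.41 CPM. Of 10 osteoclast genes 4 were at 0, among them Dcstamp and Calcr. Their sum of 770 CPM against 564 was nearly all Ctsk, at 577 against 405 CPM. The 9 epithelial genes summed to 42.3 CPM in the set, 175 in the other gated TNF+ and 9.77 in gated TNF- barcodes, with at least 3 UMIs in 2 barcodes of the set and with Krt5 and Krt14 at 0. The 11 muscle genes summed to 32.7, 50.9 and 119 CPM, and 5 of them were at 0 in the set, among them Myf5, Myod1 and Pax7. The 10 mural genes (of pericytes and smooth muscle) summed to 380, 551 and 109 CPM. At least 3 mural UMIs were found in 61.0% of the set, 25.8% of the other gated TNF+ and 13.7% of the gated TNF- barcodes. Acta2 (smooth muscle actin, which activated fibroblasts also make) gave most of the mural sum, at 304, 255 and 13.1 CPM, whereas the pericyte gene Rgs5 stood at 3.34, 146 and 16.8 CPM and Higd1b was at 0 in the set. The part of other cell types in the results was not tested. Most of the set thus carried fibroblast markers, and the barcodes with high Ibsp, some of which also carried 3 or more osteoblast markers, are described apart.

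Mmp13 and Ibsp chose the set, so their levels only describe the choice. Over the 182 barcodes the lowest Mmp13 count was 0, the median 41 and the highest 821 UMIs. Summed, Mmp13 stood at 2843 CPM (2798 to 2889) in the set, 9.48 CPM (7.22 to 12.2) in the other gated TNF+ and 0.0178 CPM, from 1 UMI, in gated TNF- barcodes. A UMI of Mmp13 was present in 95.1% of the set and 10.0% of the others. Ibsp had a median of 0 and a highest count of 2735 UMIs. Its sum was 1730 CPM in the set, 1.12 CPM in the other gated TNF+ barcodes and 0 in gated TNF- barcodes. Over the 581 gated TNF+ barcodes, the combined count was 0 in 354, 1 in 31, 2 in 8, 3 in 5, 4 in 1, 5 to 9 in 24 and 10 or more in 158. Exactly 5 UMIs were found in 9 barcodes. The 13 barcodes just inside it (5 or 6 UMIs) had Saa3 at 1081, Hp at 2216, Mmp3 at 4176 and Tnfsf11 at 190 CPM. The 6 just outside (3 or 4 UMIs) had Saa3 at 10287, Hp at 11605, Mmp3 at 4671 and Tnfsf11 at 69.3 CPM, but 60.5% of their 2526 Saa3 and Hp UMIs came from 1 barcode. The 45 barcodes with 1 to 4 UMIs had Saa3 at 2822, Hp at 3381, Mmp3 at 2265 and Tnfsf11 at 63.4 CPM.

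The other markers given for the set are secreted products of inflamed stroma. Mmp3, stromelysin 1, had a lowest count of 0, a median of 59 and a highest of 1024 UMIs per barcode, and stood at 4467 CPM against 1158 in the other gated TNF+ and 81.0 in gated TNF- barcodes. Its log2 ratio over the other gated TNF+ barcodes was 1.95 (1.91 to 1.99). Hp, the haemoglobin-binding protein haptoglobin, had a median of 25.5 and a highest count of 1286 UMIs and stood at 3074, 1717 and 0.160 CPM in the same order. Saa3, an acute phase protein, had a median of 3.5 and a highest count of 882 UMIs and stood at 2201, 1594 and 0.909 CPM. Both were thus far above the TNF- level in either group of TNF+ fibroblasts. The ratio within TNF+ synovium was smaller, 0.84 (0.81 to 0.88) for Hp and 0.46 (0.43 to 0.50) for Saa3 on the log2 scale. Cxcl5, a neutrophil-attracting chemokine, stood at 1154, 657 and 1.23 CPM, a log2 ratio of 0.81 (0.75 to 0.87). Timp1, an inhibitor of metalloproteinases, stood at 2158, 1786 and 18.6 CPM, a log2 ratio of 0.27 (0.24 to 0.31). Postn, the matrix protein periostin, stood at 1533, 741 and 70.3 CPM, a log2 ratio of 1.05 (0.996 to 1.10).

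**Figure D1:**
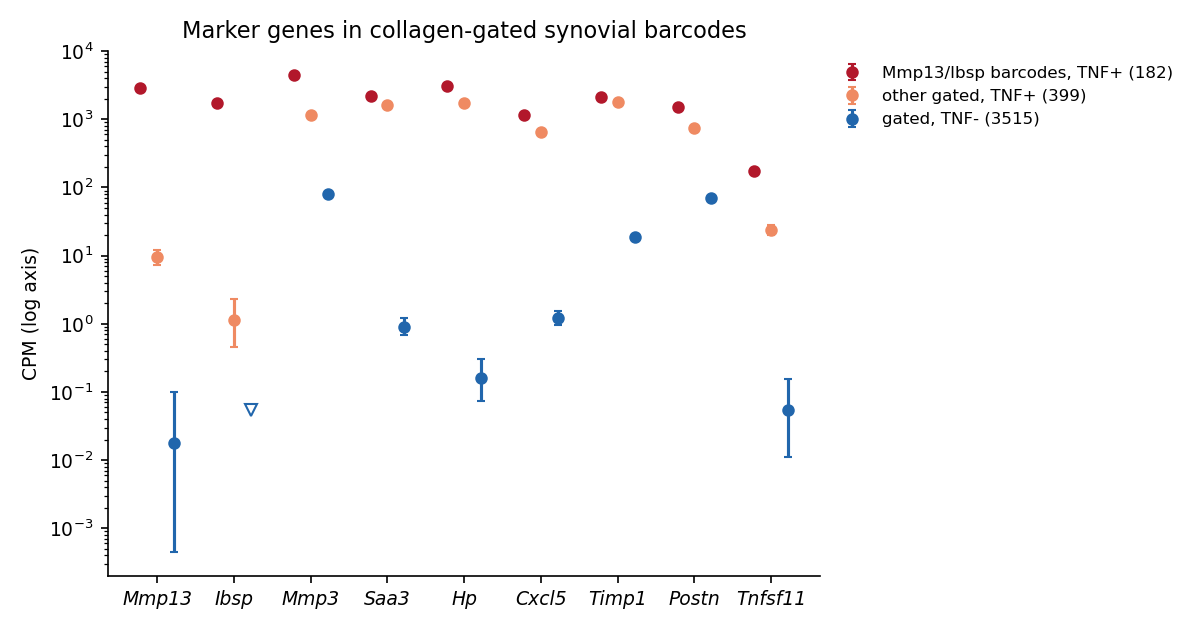
CPM (log axis) of the 8 marker genes and Tnfsf11 in 182 Mmp13/Ibsp barcodes, 399 other gated TNF+ and 3515 gated TNF- synovial barcodes, with 95% Poisson intervals (often smaller than the points). The open triangle marks Ibsp at 0 UMIs in TNF-, drawn at the level of 3 UMIs. Saa3, Hp, Cxcl5 and Timp1 each differ by less than 2-fold between the TNF+ groups and lie far above TNF- in both. Mmp13 and Ibsp define the TNF+ groups, so their gap follows from the rule.

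Counted by barcode, the marker programme was shared. Of gated TNF+ barcodes with at least 5 UMIs of a gene, the set held 126 of 216 for Hp, 90 of 152 for Saa3, 134 of 227 for Mmp3, 94 of 171 for Cxcl5, 150 of 273 for Timp1 and 151 of 273 for Postn. For Tnfsf11 it held 61 of 71 (85.9%, 75.6 to 93.0%). The set was 31.3% of all gated TNF+ barcodes. These are raw counts, and the set was the deeper group. Thinned to 2000 UMIs, with 2 barcodes of the set and 9 of the others too shallow, Mmp3 was detected in 70.6% of the set and 23.6% of the other gated TNF+ barcodes. The unthinned shares were 83.0% and 37.8%. TNF+ leukocytes, which should lack Mmp3, showed it in 0.75% after thinning (median depth before thinning 13719.5 UMIs). Hp gave 58.9% and 22.3%, but also 36.6% in TNF+ leukocytes, so a UMI of Hp was not read as a mark of fibroblasts. Saa3 gave 45% and 17.2%, with 4.00% in leukocytes. Tnfsf11 gave 20.6% and 2.82%, with 0.75% in leukocytes, and its unthinned shares were 66.5% and 8.52% in the set and the others.

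The Saa3 and Hp programme outside the set was examined in the 103 other gated TNF+ barcodes with at least 5 UMIs over both genes, a group defined after the data were seen. There Saa3 was at 3464, Hp at 3723, Cxcl5 at 1209 and Timp1 at 2901 CPM, each above its level in the set. Mmp3 was at 2075, Postn at 923 and Tnfsf11 at 43.0 CPM, each below it. Mmp13 was at 12.9 CPM in these barcodes. Saa3 and Hp chose these barcodes, so their levels there are a description.

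Across all genes, 12075 had at least 20 UMIs over the set and the other gated TNF+ barcodes. Of these, 433 (3.59%) were at least 2-fold higher and 1412 (11.7%) at least 2-fold lower in CPM in the set, and the median log2 ratio was -0.02. The list counts within TNF+ synovium below are to be read beside these shares. Against gated TNF- barcodes 1825 of 16805 (10.9%) were higher and 5115 (30.4%) lower. The other gated TNF+ barcodes gave 1544 of 16844 (9.17%) higher and 3779 (22.4%) lower against the same control. The median ratios against TNF- were -0.34 and -0.28, and both comparisons share the TNF- library. With median-of-ratios scaling the set had 2729 genes higher and 3891 lower than TNF-, so 41.2% of the genes past 2-fold were higher in place of 26.3%. Against the 103 Saa3 and Hp barcodes, 456 of 10998 (4.15%) were higher and 534 (4.86%) lower.

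Tnfsf11 was among the genes with the highest ratios. It encodes RANKL and ranged from 0 to 38 UMIs per barcode with a median of 2, and its median among the others was 0. It stood at 175 CPM in the set, 23.8 in the other gated TNF+ and 0.0535 in gated TNF- barcodes, a 7.38-fold difference within TNF+ synovium (log2 2.88, 2.63 to 3.14). The set held 70.7% (68.2 to 73.2%) of the Tnfsf11 UMIs of all TNF+ synovial barcodes. Its decoy receptor Tnfrsf11b (osteoprotegerin) was at 23.6, 13.5 and 1.39 CPM. Csf1, the macrophage and osteoclast growth factor, was at 119, 190 and 144 CPM, so it was not higher in the set. Of 13 tested osteoclast regulators Tnfsf11 and Ptges (a prostaglandin E synthase, 92.8 against 45.6 CPM) were at least 2-fold higher and 3, Csf2, Il33 and Tslp, lower. The median log2 ratio was 0.00.

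Other genes with the largest ratios were Alpl (tissue alkaline phosphatase, 107 against 8.19 CPM, log2 3.71), Pth1r (parathyroid hormone receptor, 91.5 against 11.7, log2 2.96) and Spp1 (osteopontin, 1373 against 219, log2 2.65). Acan, the large proteoglycan of cartilage, stood at 129 against 23.5 CPM (log2 2.46), and Hapln1, which links such proteoglycans to hyaluronan, at 21.0 against 2.89 CPM (log2 2.86). Nt5e, the ectonucleotidase CD73, stood at 67.8 against 12.5 CPM (log2 2.43), and Itga10, a collagen-binding integrin chain, at 21.2 against 4.34 CPM (log2 2.29). Tnfrsf9, the receptor 4-1BB, stood at 19.7 against 1.77 CPM (log2 3.48), and 42 of its 106 UMIs in the set came from 1 barcode. Fat3, a protocadherin, stood at 23.4 against 3.54 CPM (log2 2.73), and Brinp3 at 46.8 against 8.19 CPM (log2 2.51). Olfr810, an olfactory receptor gene, and Cyyr1 had 28.2 and 28.0 against 2.57 CPM each. Not all of these ratios held in every part of the set. Without the barcodes with at least 5 Ibsp UMIs, the log2 ratio of Fat3 was 0.28. With members chosen by Ibsp alone, the log2 ratios were 0.21 for Brinp3 and 0.66 for Olfr810. Of the UMIs in the set, the 32 barcodes with at least 5 Ibsp UMIs held 425 of 579 for Alpl, 379 of 493 for Pth1r, 424 of 693 for Acan, 3707 of 7397 for Spp1 and 51 of 113 for Hapln1.

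The genes with the lowest ratios had few UMIs in the set. Myoc (myocilin) had 1 UMI in the set against 495 CPM in the other gated TNF+ and 1290 CPM in gated TNF- barcodes (log2 -11.38, -16.68 to -8.90). Ccl11 (eotaxin) likewise had 1 UMI against 278 CPM (log2 -10.55, -15.85 to -8.07). Inmt and Egfl6 had 0 UMIs. Against a floor of 3 UMIs over the set, Inmt was at least 142-fold and Egfl6 at least 57.7-fold lower. These genes did not share a direction against the control, since Egfl6 stood at 32.1 CPM in the other gated TNF+ and 7.67 CPM in gated TNF- barcodes. Tnxb, the matrix protein tenascin-X, stood at 4.64 against 239 CPM (log2 -5.69), and Sparcl1 at 2.04 against 138 CPM (log2 -6.08). Such low counts leave wide intervals. Of the membrane transporters with 3 UMIs each, Abca8a had a log2 ratio of -7.84 (-10.12 to -6.29) and Abca8b of -6.72 (-9.01 to -5.16). Dkk2, a Wnt antagonist, had a ratio of -6.13 (-8.41 to -4.56) and Dpp4, a surface peptidase, of -5.57 (-7.87 to -4.00), again from 3 UMIs. Fmo2 and Frmpd4 had 2 UMIs and ratios of -6.05 (-9.11 to -4.17) and -5.84 (-8.90 to -3.95). Lsamp and Ntrk2, a cell adhesion gene and a neurotrophin receptor gene, were also among the lowest 15, with ratios of -6.75 and -5.62.

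The sublining list was lower in the set. Of 16 tested genes 0 were at least 2-fold higher and 13 lower, with a median log2 ratio of -2.57 against -0.02 over all genes. Gsn (gelsolin, which severs actin filaments) stood at 317 CPM in the set, 5118 in the other gated TNF+ and 17854 in gated TNF- barcodes. Cd34 stood at 25.4, 157 and 643 CPM, Clec3b (tetranectin) at 46.4, 521 and 1576 CPM, and Apod (a lipid-carrying protein) at 33.1, 1089 and 1088 CPM. Thy1, the surface glycoprotein of sublining cells, was within 2-fold at 48.1 against 61.1 CPM. The lining list had 0 higher and 6 lower of 11, with a median of -1.21. Its defining gene Prg4 did not follow it, at 3133 CPM in the set, 3371 in the other gated TNF+ and 246 in gated TNF- barcodes. Has1, a hyaluronan synthase, stood at 325 against 783 CPM. Tendon genes gave 0 higher and 6 lower of 10 (median -1.38), with Thbs4 (thrombospondin 4) at 586 against 1912 CPM.

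By raw counts of these genes, barcodes of the set fell in more than 1 of the usual layers. The set was the deeper group, so raw counts reach a threshold more easily in it. At least 5 UMIs of Prg4 were found in 104 of its barcodes (57.1%) and 148 of the others (37.1%). At least 5 UMIs over Cxcl14 and Smoc2, 2 sublining genes, were found in 85 (46.7%) and 206 (51.6%), whereas Pi16 and Dpp4 reached 5 UMIs in 1 and 35. Among the other gated TNF+ barcodes, Tnfsf11 was at 26.6 CPM in the Prg4 group, 21.0 in the Pi16 and Dpp4 group, 29.6 in the Cxcl14 and Smoc2 group and 7.51 in the Tnmd and Scx (tendon) group. All 4 values were far under the 175 CPM of the set. Mmp3 was at 1488, 1284, 1250 and 811 CPM in the same groups, which overlap.

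Matrix-degrading enzymes were described as a list. Of 14 tested matrix metalloproteinases 5 were at least 2-fold higher and 1 lower in the set, with a median log2 ratio of 0.80. The 5 were Mmp13, Mmp3, Mmp12, Mmp10 and Mmp9, of which Mmp13 chose the set, and the lower one was Mmp25, with 1 UMI. Mmp12, a macrophage elastase, stood at 23.2 against 1.45 CPM and had UMIs in 10 barcodes. Mmp10 (stromelysin 2) stood at 36.4 against 9.16 CPM, and 52.0% of its UMIs in the set came from 1 barcode. Mmp9, a gelatinase, stood at 21.2 against 8.19 CPM, but the set held 1.03% of the Mmp9 UMIs of the library. The broadly expressed Mmp14 (a membrane-bound collagenase) and Mmp2 (gelatinase A) were within 2-fold, at 882 against 483 and 1263 against 883 CPM. Both were above their TNF- levels of 198 and 552 CPM. The inhibitors gave 0 higher and 1 (Reck) lower of 4, with Timp2 at 1277 against 1146 and Timp3 at 249 against 308 CPM. The ADAMTS proteases, among them aggrecanases, gave 1 higher and 2 lower of 14 (median -0.15), and Adamts5 stood at 161 against 185 CPM. Over all genes, 3.59% were higher and 11.7% lower in the same comparison, so the ADAMTS counts were near that background.

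Matrix genes were higher in the set mainly against TNF-. Of 33 provisional and remodelling matrix genes 4 were higher and 1 lower within TNF+ synovium (median 0.39), and 21 higher and 0 lower against TNF- (median 1.85). Over all genes the shares higher and lower were 3.59% and 11.7% within TNF+ synovium, and 10.9% and 30.4% against TNF-. Fn1 (fibronectin) stood at 3620, 1999 and 897 CPM in the set, the other gated TNF+ and the gated TNF- barcodes. Tnc (tenascin-C) stood at 665, 398 and 45.4 CPM, and Cthrc1, a secreted collagen-associated protein, at 609, 320 and 1.80 CPM. Col12a1, a collagen of fibril surfaces, stood at 935, 447 and 93.2 CPM. Dcn, the small proteoglycan decorin, ran the other way at 3521, 8124 and 13190.2 CPM. Of 20 pan-fibroblast genes 2 were higher (Col1a1 and Lum) and 2 lower (Dcn and Fbln1) within TNF+ synovium, with a median of 0.55.

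Inflammatory genes were mixed, beside 3.59% higher and 11.7% lower over all genes within TNF+ synovium, and 10.9% and 30.4% against TNF-. Of 5 tested neutrophil CXC chemokines 1 was higher and 1 lower (median 0.81), and all 5 were higher against TNF- (median 6.27). Cxcl2 stood at 1248, 567 and 16.2 CPM and was the one past 2-fold, whereas Cxcl1 stood at 1541, 1601 and 572 CPM. Of 16 other chemokines 2 were higher and 6 lower (median -0.45). Ccl5 (RANTES) stood at 1929, 650 and 2.41 CPM, and Ccl20, which attracts cells with the receptor CCR6, at 89.9, 28.8 and 0 CPM. Ccl2, the main monocyte attractant, was within 2-fold at 2622 against 2070 CPM, and Cxcl12 stood at 302 against 537 CPM. The acute phase list gave 0 higher and 4 lower of 13 (median -0.36), with Serpina3n, a protease inhibitor, at 61.3 against 223 CPM and Lcn2 (lipocalin 2) at 63.5 against 99.9 CPM. Against TNF- it gave 9 higher and 4 lower of 17 (median 1.51). Thus Hp and Saa3 were not followed by the list as a whole within TNF+ synovium.

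Most NF-kB and TNF receptor genes were within 2-fold of the other gated TNF+ barcodes, whereas members of the interleukin 6 and complement lists were past it. The list of 22 NF-kB subunits and feedback genes had 1 higher and 0 lower (median 0.10). The one was Tnip3, a partner of the NF-kB inhibitor A20, at 14.5 against 1.61 CPM. Nearer the median were Nfkbia (the inhibitor IkB alpha) at 634 against 806 and Sod2 (mitochondrial superoxide dismutase) at 524 against 392 CPM. The 8 tested TNF receptor genes had 1 higher, Tnfrsf9, and 1 lower, Tnfrsf21 (median -0.01), and Tnfrsf1a (TNF receptor 1) stood at 106 against 130 CPM. Mouse Tnf itself stood at 2.04, 3.05 and 1.25 CPM. Of 13 genes of the interleukin 6 family 2 were higher and 4 lower (median -0.48), beside 3.59% higher and 11.7% lower over all genes. Il6 stood at 83.7, 223 and 116 CPM, and Il11 at 52.2, 19.3 and 3.33 CPM. The receptor-feedback gene Socs3 stood at 139, 346 and 743 CPM. Complement genes gave 0 higher and 7 lower of 18 (median -0.66), with C3, the central component, at 2202, 3812 and 1287 CPM and Serping1 (C1 inhibitor) at 746, 1306 and 1026 CPM.

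**Figure D2:**
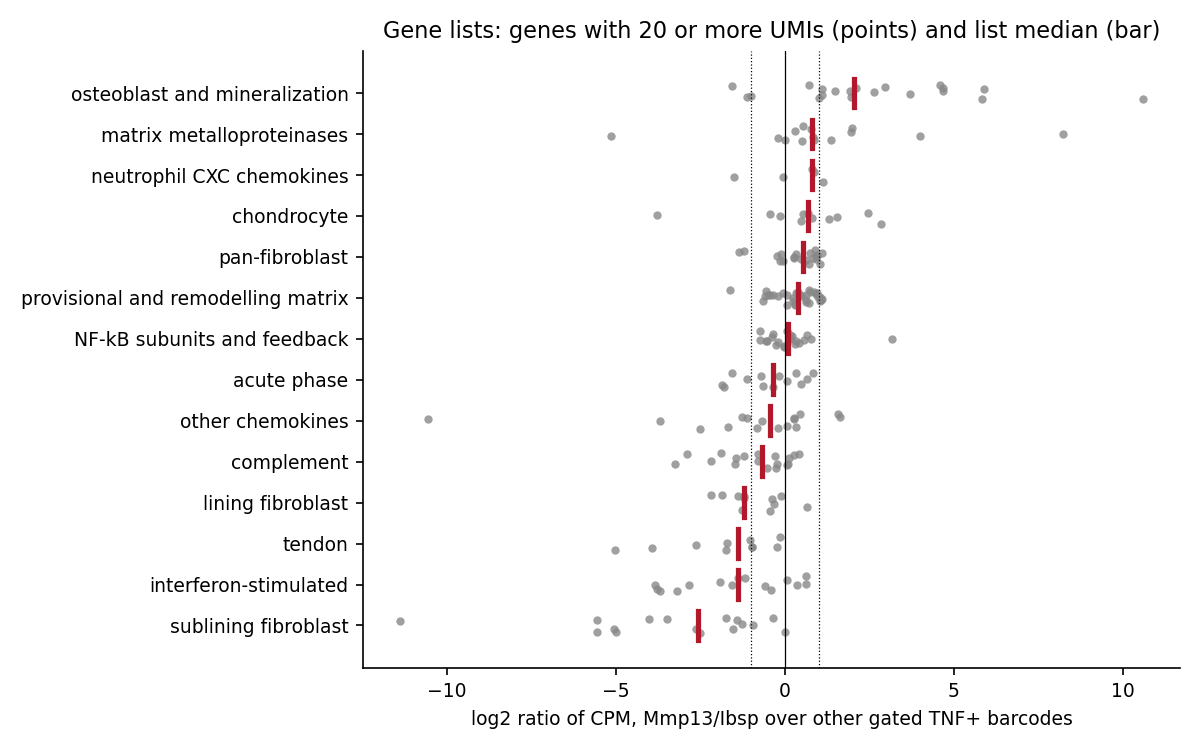
Each point is the log2 ratio of CPM of 1 gene, Mmp13/Ibsp barcodes over other gated TNF+ barcodes, for genes with at least 20 UMIs over both; red bars are list medians and dotted lines mark 2-fold. Osteoblast genes lie highest (median 2.04) and sublining genes lowest (median -2.57), while NF-kB genes centre near 0.

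The set was divided by which of the 2 genes a barcode carried. The rule asks for 5 UMIs over both, so a barcode low in one must hold the other. At least 5 Mmp13 UMIs with fewer than 5 Ibsp UMIs were found in 150 barcodes (82.4%), at least 5 of both in 18, and at least 5 Ibsp with fewer than 5 Mmp13 UMIs in 14 (7.69%). Ibsp was at 0 in 139 barcodes and Mmp13 in 9. Over the whole gate, 18 of the 32 barcodes with at least 5 Ibsp UMIs (56.2%) also had at least 5 Mmp13 UMIs, against 168 of all 581 (28.9%). The median depth was 30116.5, 29794 and 10233.5 UMIs in the 3 kinds. At least 3 of 8 osteoblast markers (Sp7, Bglap, Bglap2, Alpl, Runx2, Dmp1, Phex and Ifitm5) were detected in 3 of the 150, 6 of the 18, 7 of the 14, and 2 of the 399 other gated TNF+ barcodes. The shares were 2, 33.3, 50 and 0.501%, although the 14 were the shallowest of the 3 kinds.

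**Figure D3:**
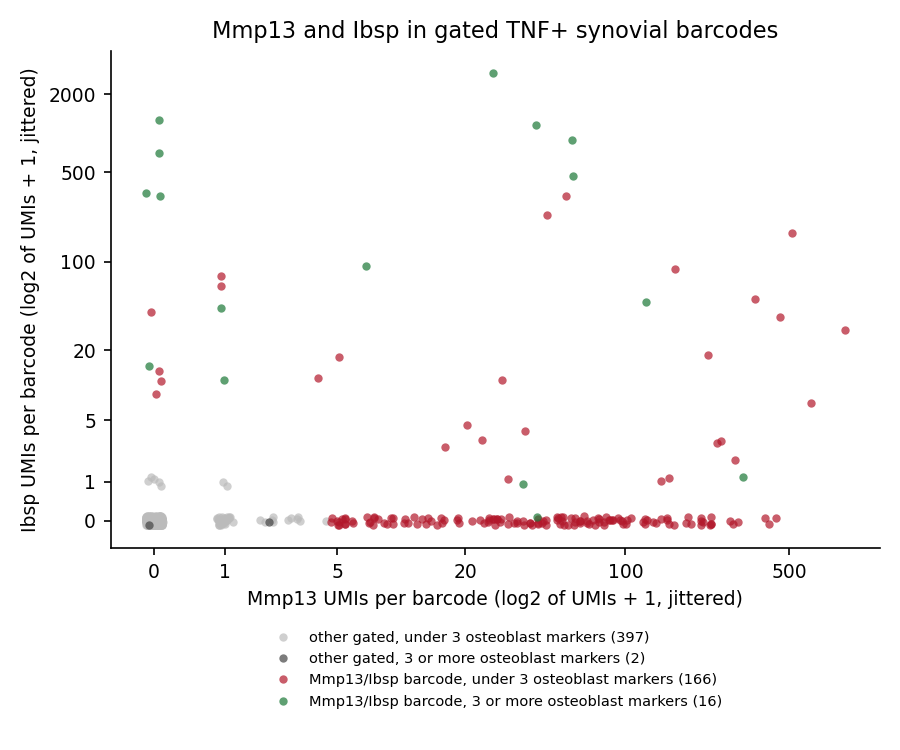
Mmp13 (x) and Ibsp (y) UMIs per gated TNF+ synovial barcode on log2 (UMIs + 1) axes, jittered, coloured by group and by whether at least 3 of 8 osteoblast markers were detected. Of the 16 green barcodes (3 or more markers), 6 hold at least 5 UMIs of both genes, 7 hold Ibsp with little Mmp13 and 3 hold Mmp13 with little Ibsp.

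The inflammatory genes split the other way. At least 5 UMIs over Saa3, Hp, Cxcl5, Mmp3 and Ccl5 were found in 140 of the 150 Mmp13 barcodes, 10 of the 18 with both, 1 of the 14 Ibsp barcodes and 147 of the 399 others. The median of their summed level per barcode was 9587, 570, 12.1 and 60.5 CPM in that order. Summed over barcodes, Mmp3 was at 4844, 3128 and 4.10 CPM in the 3 kinds, and Saa3 at 2510, 375 and 4.10 CPM. Both values in the 14 Ibsp barcodes rest on 1 UMI. Thinned to 2000 UMIs, Mmp3 was detected in 79.3% of the 150, 27.8% of the 18, and 0 of 12 Ibsp barcodes deep enough. Tnfsf11 was at 183, 190 and 8.20 CPM, so RANKL lay in the barcodes with Mmp13 and not in those with Ibsp alone, where it had 2 UMIs. C3 was at 2506, 414 and 45.1 CPM.

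Bone genes lay in the Ibsp kinds. Alpl was at 33.1 CPM in the 150, 480 in the 18 and 767 in the 14. Pth1r was at 24.5, 501 and 537 CPM, and was detected in 18 of the 18. Runx2, a transcription factor of the osteoblast lineage, was at 78.5, 268 and 250 CPM. Bglap (osteocalcin) had 0 UMIs in the 150, 46.4 CPM in the 18 and 1382 CPM in the 14. It was carried by few barcodes, since 5 of the 14 had a UMI and 72.7% of the UMIs came from 1, without which the level was 453 CPM. Smpd3, a sphingomyelinase of mineralizing tissue, was at 0.430 CPM in the 150 and 672 CPM in the 14. Sp7 (osterix) was detected in 6 and Ifitm5 in 4 of the 14, and the osteocyte genes Dmp1 and Phex were detected in 1 and 0. The 14 also had Acan at 857 CPM and Col11a2, a minor cartilage collagen chain, at 705 CPM, but Col2a1, the main cartilage collagen, was at 1.67 CPM in the whole set. Of the 8 markers, the 14 had little Mmp3, Saa3, Cxcl5 (16.4 CPM) and Hp (49.2 CPM), but Timp1 stood at 918 CPM (11 of 14 barcodes) and Postn at 898 CPM (8 of 14). They are named here by Ibsp, Alpl and Pth1r rather than as inflamed fibroblasts.

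Spp1 was in both kinds of barcode, at 794, 5778 and 3460 CPM, and 54.0% of its UMIs in the 14 came from 1 barcode. Tnn (tenascin-N), detected in 130 of the 150 and 18 of the 18, was at 525 and 1300 CPM. Inhba, the activin A subunit, was detected in 146 of the 150 and was at 1460 CPM there. The osteoblast and mineralization list had 16 higher and 2 lower of 20 genes, Ibsp itself among them, over the other gated TNF+ barcodes (median 2.04). Without the 32 barcodes with at least 5 Ibsp UMIs the median was 1.05. The list thus depended on them in part, and its median stayed past 2-fold. Between those 32 and the 150, 641 of 10021 genes (6.4%) were at least 2-fold higher and 1265 (12.6%) lower in the 32. The osteoblast list had 13 higher and 2 lower of 19 and the chondrocyte list 7 higher and 1 lower of 9. Ibsp made this split and is in the osteoblast list, so its own place among the higher genes follows from the choice. The acute phase list had 1 higher and 10 lower of 12, and the other chemokines 0 higher and 11 lower of 14.

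**Figure D4:**
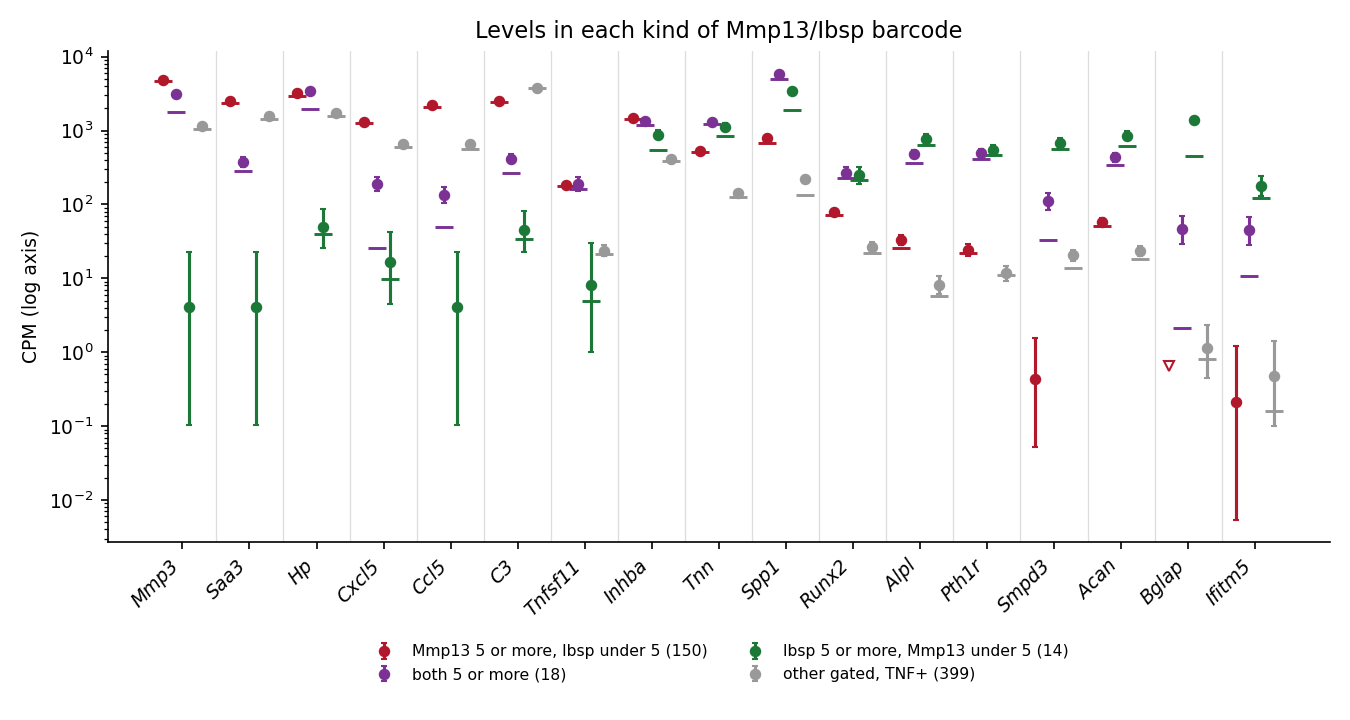
CPM (log axis, 95% Poisson intervals) of inflammatory and bone genes in the 3 kinds of Mmp13/Ibsp barcode and the other gated TNF+ barcodes; dashes give the level without the barcode with most UMIs of the gene (not drawn at 0), and open triangles mark 0 UMIs at the level of 3 UMIs. Mmp3, Saa3, Cxcl5, Ccl5 and Tnfsf11 are lowest in the barcodes with Ibsp alone, and Alpl, Smpd3, Acan and Bglap are highest there.

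Within the 150 Mmp13 barcodes, genes differed in how their levels ran with Mmp13. The barcodes were ordered by Mmp13 CPM and cut into 3 groups of 50, a split made after the data were seen, with Mmp13 from 85.3 to 972, from 989 to 2649 and from 2686 to 14335 CPM. Mmp3 stood at 4545, 4618 and 5406 CPM and Saa3 at 2282, 2223 and 3050 CPM in the 3 groups. Postn (1507, 1530 and 1530 CPM) and C3 (2512, 2494 and 2511 CPM) were level. Timp1 was at 3174, 2543 and 870 CPM, lowest where Mmp13 was highest, and Cxcl2 was at 2049, 1096 and 748 CPM. Prg4 was at 5423, 2279 and 2388 CPM, and Tnfsf11 at 149, 205 and 201 CPM. Brinp3 (16.8, 49.8 and 97.3 CPM) and Cyyr1 (17.3, 29.4 and 40.3 CPM) were higher in each step. Runx2 (60.1, 50.5 and 127 CPM) and Tnfrsf9 (9.83, 7.71 and 46.3 CPM) were highest where Mmp13 was highest. For Tnfrsf9, 1 of the 150 barcodes held 42 of the 106 UMIs in the set. Its levels in the 3 groups were not computed without that barcode.

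The set held most of the UMIs of several genes in the TNF+ library, beside 11.4% of the UMIs of all genes. Of the UMIs in the 3498 barcodes that passed the first filters, the set of 182 held 98.3% for Ibsp, 95.7% for Bglap, 86.2% for Mmp13, 79.8% for Acan, 70.6% for Cemip (a hyaluronan-degrading protein), 70.4% for Mmp3 and 69.7% for Tnn. It held 59.4% for Inhba, 54.4% for Ccl5, 45.5% for Saa3, 43.4% for Hp and 38.0% for Prg4. For Spp1 the share was 21.7%. For Mmp13 a further 11.7% lay in 76 barcodes that passed the collagen threshold but carried Ptprc or Cdh5 UMIs. Of 206 barcodes with at least 5 Mmp13 and Ibsp UMIs, 13 were left out for Ptprc, 5 for Cdh5 and 6 for too few collagen UMIs.

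**Figure D5:**
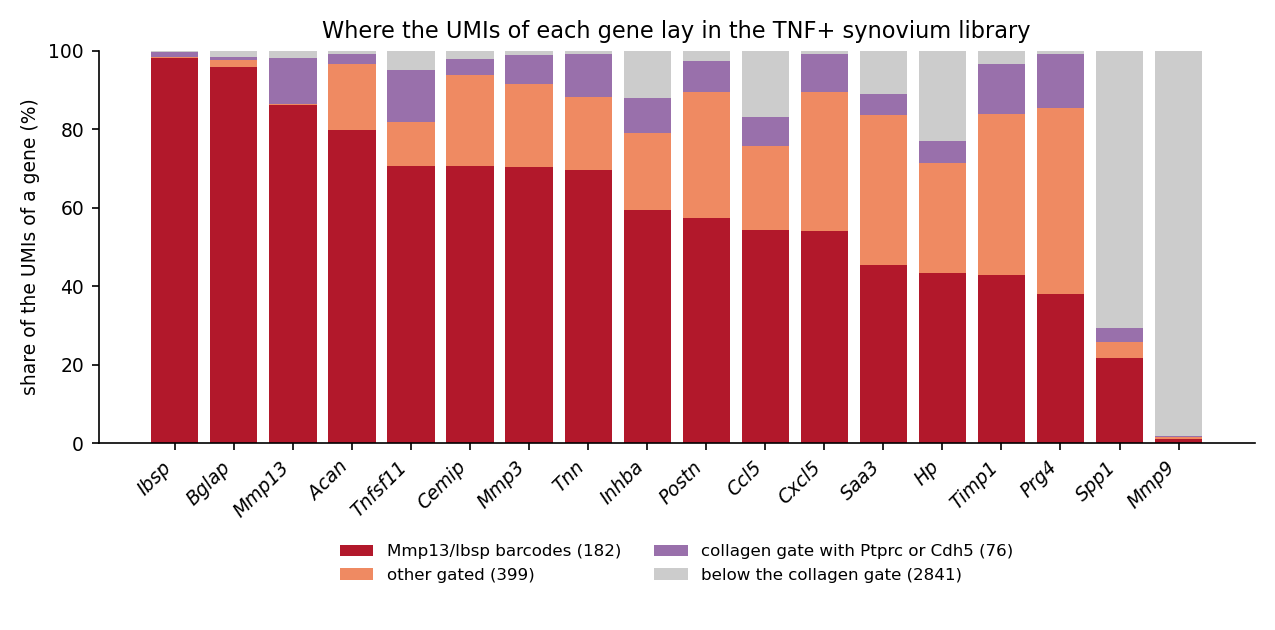
Share (%) of the UMIs of each gene in 3498 TNF+ synovial barcodes that lay in the Mmp13/Ibsp barcodes, the other gated barcodes, the barcodes passing the collagen threshold with Ptprc or Cdh5 UMIs, and the barcodes below the threshold. The 182 Mmp13/Ibsp barcodes hold over 70% of Ibsp, Bglap, Mmp13, Acan, Tnfsf11, Cemip and Mmp3 UMIs, 21.7% of Spp1 and 1.03% of Mmp9, beside 11.4% of all UMIs.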

How the data were processed

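Single-cell suspensions of synovium and lung were profiled in 4 libraries, 1 per genotype and tissue. The deposited matrices hold raw counts of UMIs that the authors obtained with Cell Ranger 7.0.1 from the 10x mouse reference (GRCm38). Each matrix lists 32285 genes. Python 3.11.15, NumPy 2.4.6, SciPy 1.17.1 and pandas 2.3.3 were used. The barcodes were chosen on raw UMIs as described in the report, and the members and gene lists were chosen with earlier results of these data known. For each group, the UMI sum of a gene was scaled to 1000000 UMIs over all genes (CPM). Intervals are exact Poisson for CPM, conditional binomial for ratios and Clopper-Pearson for shares. Ratios were computed for genes with at least 20 UMIs over both groups, and past 2-fold means a 2-fold ratio of CPM. A group at 0 was set to 3 UMIs. With 1 library per group no test was run. Shares across depths were also computed after each barcode was thinned at random to 2000 UMIs.

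Named genes are the 8 markers, the 15 highest and the 15 lowest ratios among named genes with at least 100 UMIs in the higher group and a UMI in at least 10% of its barcodes, and the most abundant or defining genes of 31 lists with 469 genes. Genes of smaller counts named for the 3 kinds of barcode were chosen after their values were seen. The ratio and interval code was tested on simulated counts. Promoter windows were read from a RefSeq table of the same build. Some genes that these rules and lists name are not reported here.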

Additional observations from a re-analysis of the deposited data

Results flagged for a closer look

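The lung libraries were not used in the comparisons above. The same gate kept 343 TNF- and 35 TNF+ lung barcodes, and 0 of them reached 5 Mmp13 and Ibsp UMIs. The upper exact binomial limits were 1.07% for TNF- and 10.0% for TNF+. The gate held 4.11% of passing TNF- and 0.316% of passing TNF+ lung barcodes. Whether it held the same mix of cells in both was not tested. Several other markers were nevertheless above the TNF- level in the gated TNF+ lung barcodes. Saa3 was at 1335 CPM (1257 to 1417) against 495 CPM, Mmp3 at 437 CPM (393 to 485) against 248 CPM, and Hp at 159 CPM (133 to 189) against 46.3 CPM. Cxcl5 was at 33.0 CPM (21.8 to 48.1) against 7.04 CPM, and Postn at 633 CPM (579 to 690) against 70.9 CPM. Timp1 was lower, at 73.4 against 204 CPM. Over all passing lung barcodes, Mmp3 (5.30 against 20.9 CPM), Postn (6.81 against 18.6 CPM) and Timp1 (3.47 against 16.9 CPM) were lower in TNF+. Saa3 (62.6 against 35.6 CPM), Hp (697 against 181 CPM) and Cxcl5 (0.958 against 0.827 CPM) were higher there. Each value rests on 1 library of pooled lungs, and the intervals cover counting error.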

How the results depend on the processing

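Of 36 named genes 32 were past 2-fold. All 32 kept their direction under each of the alternatives that gave a value (at most 16 per gene, 2 of them chosen after seeing the data), and 27 also stayed past 2-fold in each. Apart from the markers, the named genes were picked for the largest or smallest ratios in this same contrast. Mmp13 and Ibsp define the set. A kept direction was therefore largely built in and is no independent check. Of 30 list medians, 17 kept their direction. The share of 31.3% was 27.2% at 10 or more Mmp13 and Ibsp UMIs, 19.2% with the 200 to 5000 genes of the study's cell filter and 21.8% with thinned selection. The 433 higher genes were 874 with cells weighted equally, 809 with members chosen by Ibsp alone, and 179 and 805 at minimums of 100 and 1 UMIs. The 1412 lower genes were 594 and 2571 at those minimums and 534 against the Saa3 and Hp barcodes (chosen after seeing the data). Against depth-matched barcodes 640 were higher and 1224 lower. Against TNF-, 4782 genes were higher at a minimum of 1 UMI, and 2737 were higher and 3798 lower with 200 to 5000 genes. The median of the muscle list turned from -1.13 to 1.21 against the Saa3 and Hp barcodes. The cause was not tested for these changes, beyond the minimums, which change how many genes are counted. The log2 ratios of Saa3 (-2.66 to 0.92), Cxcl5 (-2.31 to 1.48), Hp (-0.28 to 1.27) and Timp1 (-0.68 to 1.41) over the other gated TNF+ barcodes crossed 0. Saa3 and Cxcl5 were lowest with members chosen by Ibsp alone. No paired analysis was possible because each group is 1 library. Pooled mice, uncalled doublets and the deeper barcodes of the set limit every comparison.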

Other observations

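Other gene groups of the Mmp13/Ibsp barcodes followed the TNF+ against TNF- contrast more than the contrast within TNF+ synovium. Of 28 tested glycolysis and hypoxia genes 18 were at least 2-fold higher and 2 lower than in gated TNF- barcodes (median log2 ratio 1.37), and 2 of 27 were higher and 1 lower than in the other gated TNF+ barcodes (median 0.25). Hif1a, the oxygen-regulated transcription factor, stood at 426, 244 and 76.4 CPM in the set, the other gated TNF+ and the gated TNF- barcodes. Gapdh stood at 722, 596 and 246 CPM, and Pkm (pyruvate kinase) at 499, 321 and 106 CPM. Of 23 cell cycle genes 21 were higher than in TNF- barcodes (median 2.69), and 2 were higher and 1 lower within TNF+ synovium (median -0.01). Few barcodes carried the mitotic genes: Mki67, a proliferation marker, had 17.5, 14.1 and 0.588 CPM, and a UMI in 14 of the 182. The median within TNF+ synovium was 2.72 against depth-matched barcodes and -1.27 with thinned selection, so the list has no stable direction there.

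Interferon-stimulated genes were lower in the set. Of 15 tested within TNF+ synovium 0 were higher and 9 lower (median -1.40), and against TNF- barcodes 1 of 19 was higher and 13 were lower (median -1.92), beside 10.9% higher and 30.4% lower over all genes (median -0.34). Iigp1, an interferon-induced GTPase, stood at 14.1, 181 and 282 CPM, and Isg15, a ubiquitin-like protein, at 17.6, 52.4 and 51.8 CPM. Gbp2, a guanylate-binding protein, did not follow them, at 88.7, 69.1 and 55.1 CPM. Of 8 Wnt antagonists 0 were higher and 6 lower within TNF+ synovium (median -1.10), with Sfrp2 at 52.0, 298 and 45.7 CPM. Over all genes within TNF+ synovium, 3.59% were higher and 11.7% lower. Dkk3 was within 2-fold of the other gated TNF+ barcodes, at 141, 73.7 and 7.31 CPM.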
